A study of Homo sapiens with 6 samples.

Results

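The genes described here encode lysosomal cathepsins, the proteases that digest protein inside lysosomes. Members were the spots of a cDNA array whose platform annotation gives 1 of 10 cathepsin symbols, brought to current symbols by gene ID. CTSL, CTSA, CTSB, CTSD, CTSH, CTSS, CTSK and CTSF had 1 spot each, which made 8 of the 9169 spots tested, while CTSZ and CTSC had 0 spots. All 8 spots passed the filter on spots without signal. The group was proposed because CTSL and CTSA were already known to be higher in this same contrast, so the differences below are a description and lend no independent support to any direction.

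RNA was taken on day 7 after transfection from SH-SY5Y, an established human neuroblastoma line resembling young sympathetic neurons, kept under geneticin at 500 µg/ml. The 3 DN-TRF2 samples carried the vector pIRES2-EGFP with a dominant-negative form of TRF2, the shelterin protein that protects chromosome ends, and the 3 GFP control samples carried the vector pEGF-C2 without an insert. Insert and backbone therefore differed together and cannot be told apart. The labels name 3 independent experiments, processed in parallel, with 1 array per sample. TRF2 itself (TERF2) had 0 spots, so the labels were not checked against the targeted gene.

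Cathepsins differ in their catalytic residue. Cathepsins L, B, H, S, K and F are cysteine proteases of the papain family, cathepsin A is a serine carboxypeptidase and cathepsin D an aspartic protease. They are made as inactive precursors, carried to lysosomes largely through mannose 6-phosphate receptors, and activated at acid pH, while cystatins inhibit the cysteine members. In adrenal chromaffin cells, which like sympathetic neurons derive from the neural crest, cathepsin L has also been described in secretory vesicles, where it cleaves neuropeptide precursors. The transcription factor TFEB binds E-box elements with the core CACGTG upstream of many lysosomal genes.

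The 250 bases upstream of the RefSeq start (build GRCh38.p14) were found for 5 of the 8 genes, and were not found for CTSB, CTSS and CTSK. The search for CACGTG, a palindrome that reads alike on both strands, gave a match in 3 of these 5, against 6.34% of all 35116 upstream windows of this length. With a T before the core, TCACGTG on either strand, which overlaps CACGTG by construction, 3 of 5 windows matched, against 3.31% of all. The GC box GGGCGG, on either strand, was present in 4 of 5 windows and in 42.6% of all. Of the sequences below, CTSL and CTSA are shown because their spots had the groups apart, and CTSD and CTSF because they hold the same core while their groups overlapped. They are written 5′ to 3′ on the strand of the gene, with CACGTG in capitals. The windows are chr9:87725869-87726118 (+) for CTSL, chr20:45891085-45891334 (+) for CTSA, chr11:1763928-1764177 (-) for CTSD and chr11:66568607-66568856 (-) for CTSF.
CTSL: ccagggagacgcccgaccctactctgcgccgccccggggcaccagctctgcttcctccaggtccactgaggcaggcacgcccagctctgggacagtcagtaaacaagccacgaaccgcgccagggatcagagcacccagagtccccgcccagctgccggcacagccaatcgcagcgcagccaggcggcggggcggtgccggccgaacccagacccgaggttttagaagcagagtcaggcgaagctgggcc
CTSA: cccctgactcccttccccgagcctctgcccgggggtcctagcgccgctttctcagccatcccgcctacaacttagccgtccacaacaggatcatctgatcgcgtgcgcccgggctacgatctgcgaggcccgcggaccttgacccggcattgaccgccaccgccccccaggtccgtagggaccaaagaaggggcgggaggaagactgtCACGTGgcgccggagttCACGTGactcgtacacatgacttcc
CTSD: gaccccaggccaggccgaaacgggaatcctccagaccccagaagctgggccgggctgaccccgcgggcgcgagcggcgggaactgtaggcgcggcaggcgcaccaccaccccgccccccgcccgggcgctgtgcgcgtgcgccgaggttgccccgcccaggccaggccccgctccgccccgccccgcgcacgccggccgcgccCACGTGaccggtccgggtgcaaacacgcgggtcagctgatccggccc
CTSF: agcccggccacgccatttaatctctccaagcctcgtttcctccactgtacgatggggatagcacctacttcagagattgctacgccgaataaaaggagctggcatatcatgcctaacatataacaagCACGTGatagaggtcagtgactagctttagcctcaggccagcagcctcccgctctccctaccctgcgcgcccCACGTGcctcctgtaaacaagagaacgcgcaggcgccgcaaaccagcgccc
In CTSA the core begins 42 and 25 bases upstream of the start, in CTSD 47 bases upstream, and in CTSF 123 and 51 bases upstream. CTSL and CTSH had 0 matches in this window. A match is a run of letters and does not show binding.

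Values are compared within a spot only, because brightness differs between spots for reasons other than RNA level. Unless stated, they are log2 of the deposited intensity plus 50 after quantile normalization of the 6 arrays, and differences are DN-TRF2 minus GFP control on this scale. In a bulk sample, fewer cells of a type and less RNA per cell cannot be told apart. GFP control replicate 2 stood apart from the other arrays. The SD of its deviations from the group mean over all spots was 0.304, where the other controls had 0.247 and 0.208. Values without that array are therefore given for each cathepsin gene, but not for genes of the other lists. Over all spots the median SD was 0.131 in DN-TRF2 and 0.242 in GFP control arrays. The median deposited intensity per array ran from 517 to 681 in DN-TRF2 and from 480 to 712 in GFP control samples. The lowest deposited value at any cathepsin spot was 117, against a highest value of 25.02 at the 384 blank positions.

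CTSL, CTSB and CTSA had higher means in DN-TRF2 cells, by about the same amount, and the other members lay closer to no difference or varied widely between arrays. CTSL, a broad endopeptidase, was 0.52 ± 0.14 higher (SE, n = 3 arrays per group), CTSB 0.49 ± 0.19 and CTSA 0.47 ± 0.17. These correspond to ratios of 1.44, 1.41 and 1.39 on the offset scale, which understates the ratio at dim spots. Among all 9169 spots these differences lay at percentiles 99.05, 98.84 and 98.59, as the plot of all spots shows. CTSK followed at 0.28 ± 0.32, CTSS at 0.035 ± 0.21 and CTSH at 0.0091 ± 0.18, while CTSD stood at -0.085 ± 0.21 and CTSF at -0.16 ± 0.20.

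By limma's test with Benjamini-Hochberg adjustment over all spots, 0 of the 8 spots passed at 0.05, as did 0.0% of all spots, with adjusted p of 0.999 for CTSL, CTSA, CTSB, CTSD, CTSF and CTSK and 1.00 for CTSS and CTSH. At an unadjusted p under 0.05 there were 3 of 8 cathepsin spots higher (CTSL, CTSA and CTSB), against 2.31% of all spots, and 0 of 8 lower, against 1.1%. The 3 came to 1 without DN-TRF2 replicate 1. Without GFP control replicate 2 they remained 3 in number, while the count over all spots moved to 397 higher and 395 lower, against 212 and 101 with all arrays. Means were higher in DN-TRF2 at 6 of 8 cathepsin spots and at 47.3% of all spots. Since the group was chosen on this contrast, the gap between these shares is not read further. The median difference over the 8 genes was 0.16, against -0.011 over all spots, and it was 0.023 without GFP control replicate 1.

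**Figure D1:**
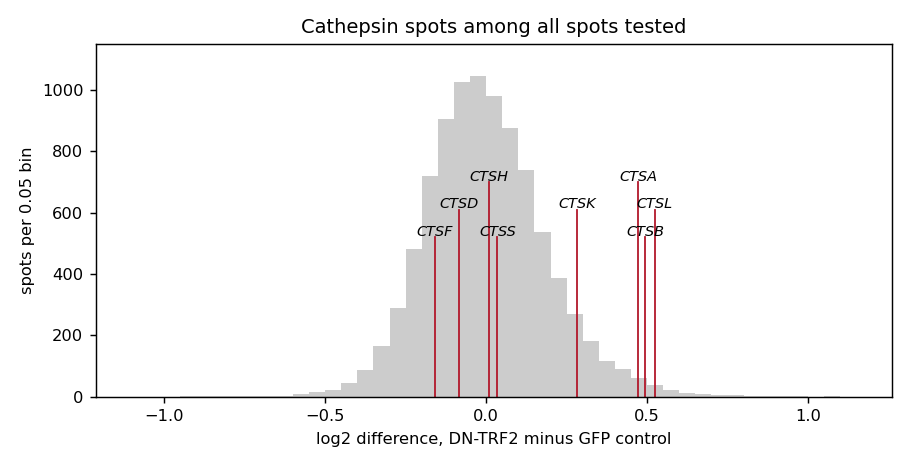
Histogram of the log2 difference (DN-TRF2 minus GFP control) of all 9169 spots tested, in bins of 0.05, with the 8 cathepsin spots marked by red lines whose height has no meaning. CTSL, CTSB and CTSA lie in the upper tail at 0.52, 0.49 and 0.47, and the other 5 nearer the centre.

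CTSL was the steadiest of the higher spots. It read 8.943, 9.001 and 9.186 on DN-TRF2 arrays 1 to 3, against 8.440, 8.527 and 8.590 on GFP control arrays 1 to 3. Every DN-TRF2 array lay above every control array, by a gap of 0.35, and the controls spanned only 0.15. Groups that do not overlap, with DN-TRF2 higher, were found at 2 of 8 cathepsin spots and at 4.28% of all spots. By replicate number the CTSL difference was 0.50, 0.47 and 0.60, all of similar size. Without GFP control replicate 2 it was 0.52 ± 0.14. In the deposited intensities the groups of CTSL did overlap, at 396, 468 and 630 in DN-TRF2 cells against 248, 278 and 420 in GFP control cells. GFP control replicate 3, the value of 420, was also the array with the highest median intensity.

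CTSB, a cysteine protease that trims dipeptides as well as cutting within chains, read 9.16, 8.83 and 9.11 on DN-TRF2 arrays 1 to 3, against 8.54, 8.24 and 8.85 on GFP control arrays 1 to 3. The groups met at a single point: the highest control exceeded the lowest DN-TRF2 array by 0.018. Within each replicate number the DN-TRF2 array was higher, by 0.62, 0.59 and 0.27. Without GFP control replicate 2, the lowest control, the difference came to 0.34 ± 0.16.

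The 3 remaining cysteine endopeptidases each had differences of both signs across the replicate numbers. CTSS, the protease of invariant chain processing in antigen-presenting cells, read 9.53, 8.78 and 9.37 on DN-TRF2 arrays, against 9.04, 9.36 and 9.17 on GFP control arrays, in replicate order. The spread within DN-TRF2, an SD of 0.40, was wider than the 0.17 of the controls and wider than the DN-TRF2 SD at 98.7% of all spots. Without GFP control replicate 2 the CTSS difference was 0.12 ± 0.21. CTSK, the collagen-degrading protease of osteoclasts, read 11.16, 11.42 and 11.28 on DN-TRF2 arrays, against 10.27, 11.83 and 10.90 on GFP control arrays. Here the DN-TRF2 arrays were close together and the controls spanned 1.56, the widest range among the 8 spots. Leaving out GFP control replicate 2, the highest control, moved the CTSK difference to 0.69 ± 0.19, and leaving out GFP control replicate 1, the lowest, moved it to -0.075. CTSF, whose loss causes an adult neuronal storage disease, read 11.20, 11.07 and 11.13 on DN-TRF2 arrays, against 11.06, 11.74 and 11.08 on GFP control arrays. GFP control replicate 2 stood above the other arrays, and without it the difference was 0.064 ± 0.13.

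CTSS and CTSK are adjacent protein-coding genes, with 0 others between them in the RefSeq gene table. Their differences by replicate number had the same signs, 0.49, -0.59 and 0.20 for CTSS and 0.88, -0.41 and 0.38 for CTSK. CTSF, which is not their neighbour, had the same order of signs, at 0.14, -0.67 and 0.051. Over the 6 arrays the deviations of CTSS and CTSK from the group mean correlated at 0.23, a description of 2 spots that share every array.

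CTSH, which works mainly as an aminopeptidase, read 11.24, 11.55 and 11.45 on DN-TRF2 arrays, against 11.16, 11.34 and 11.73 on GFP control arrays. The DN-TRF2 values lay within the range of the controls, and the 95% interval of the difference ran from -0.39 to 0.41. The estimate for CTSL lay above this interval, but the 95% interval for CTSL, from 0.21 to 0.84, overlapped it. CTSH and CTSL were not compared by a test. Without GFP control replicate 2 the difference was -0.026 ± 0.19.

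CTSA, the serine carboxypeptidase that also shields beta-galactosidase and neuraminidase from breakdown, read 8.38, 8.38 and 8.33 on DN-TRF2 arrays, against 8.11, 7.58 and 7.98 on GFP control arrays. The groups were apart by 0.22, and CTSA was also the 1 cathepsin whose groups did not overlap in the deposited intensities, which held for 1.28% of all spots. Those were 253, 290 and 325 in DN-TRF2 cells, against 189, 117 and 251 in GFP control cells, so the margin before normalization was narrow. The DN-TRF2 SD was 0.027, lower than at all but 3.599% of spots, and the control SD was 0.28. By replicate number the difference was 0.27, 0.80 and 0.35, largest where GFP control replicate 2 is the partner, and without that array it was 0.32 ± 0.13. The spot was dim, at percentile 25.6 of mean signal over all spots. NEU1, which encodes the neuraminidase partner, had 1 spot with a difference of 0.040 ± 0.18 and a second with -0.16 ± 0.18.

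CTSD, the aspartic protease that carries out bulk protein digestion and matures saposins, read 10.53, 10.31 and 10.02 on DN-TRF2 arrays, against 10.72, 10.40 and 9.99 on GFP control arrays. Both groups ran in the same order by replicate number, so that paired arrays differed by -0.19, -0.095 and 0.030, much less than arrays of 1 group differed among themselves. Without GFP control replicate 2 the difference was -0.068 ± 0.23.

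**Figure D2:**
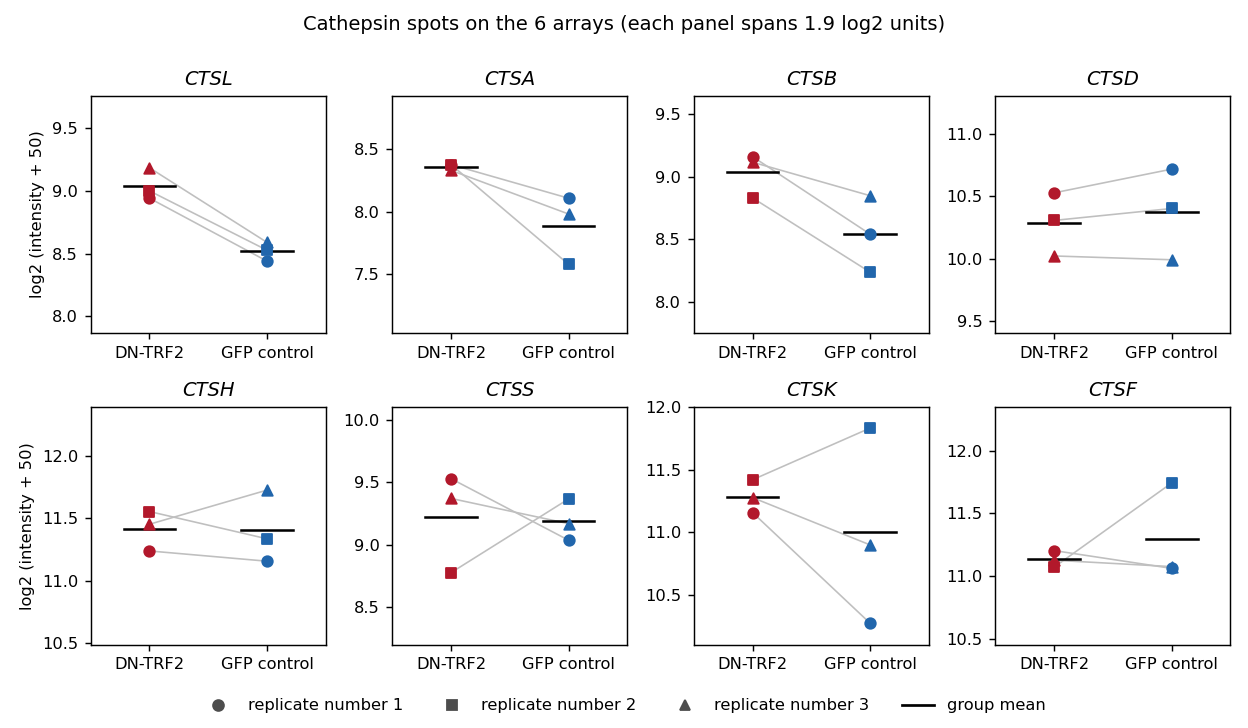
Normalized log2 intensity (offset 50) of the 8 cathepsin spots on each array, with DN-TRF2 at the left and GFP control at the right of each panel; symbols mark the replicate number, grey lines join equal numbers and black bars are group means. All panels span the same height. CTSL, CTSA and CTSB fall along every line to the control side, while the other 5 spots have lines in both directions.

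Set side by side by replicate number, 7 of 8 cathepsin spots were higher in DN-TRF2 at number 1, 4 of 8 at number 2 and 7 of 8 at number 3, with median differences of 0.38, 0.061 and 0.23. Over all spots these medians were -0.012, -0.044 and 0.00097. CTSL, CTSA and CTSB were higher at all 3 numbers, as were 11.0% of all spots, and 0 of 8 were lower at all 3, as were 14.7% of all spots. The spread within groups was like that of the array as a whole: the DN-TRF2 SD was the smaller at 6 of 8 cathepsin spots and at 78.0% of all spots.

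**Figure D3:**
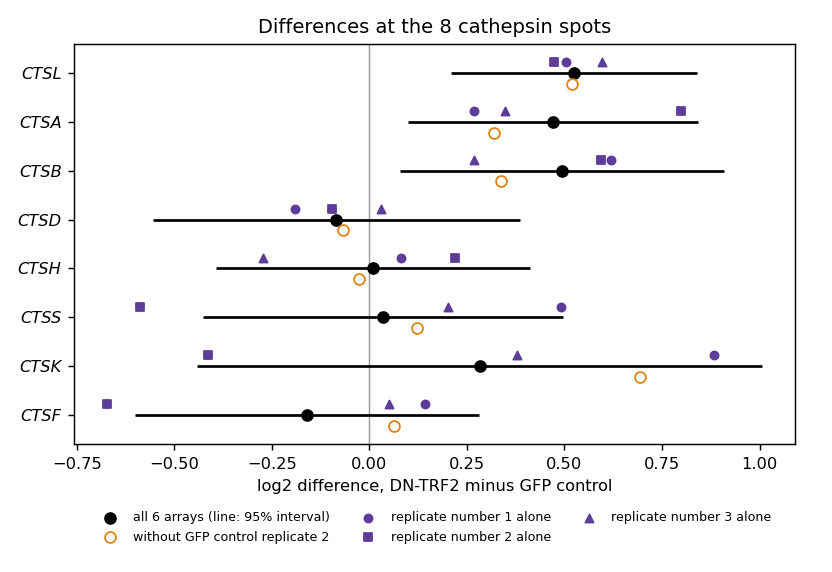
Log2 difference (DN-TRF2 minus GFP control) at each cathepsin spot. Black points and lines give the estimate and 95% interval with all 6 arrays, purple symbols the difference within each replicate number, and open circles the estimate without GFP control replicate 2; CTSK moves most, to 0.69.

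The 8 spots did not vary as one block within the groups. Of 28 pairs of cathepsin spots, 14 had a positive correlation of deviations from the group mean over the 6 arrays, with a median of -0.0087 and a range from -0.965 to 0.871. CTSK and CTSF were the most alike (0.871), and CTSA ran opposite to both (-0.965 with CTSK and -0.958 with CTSF). In all 3, GFP control replicate 2 was the array farthest from its group mean. CTSL and CTSA, the 2 spots whose groups were apart, correlated at -0.24. Among 6247 other named genes, those whose deviations were most like CTSL were PRKAA1 (0.983), PPP1CA (0.982) and BIN3 (0.975), with group differences of -0.11, -0.0040 and 0.12. Those most like CTSA were GSTT2B (0.9995), STC2 (0.9993) and C4BPB (0.9987), with group differences of 0.099, -0.028 and 0.12. A correlation above 0.9 was found for 64 genes with CTSL and for 583 with CTSA, so that these names are a few of many.

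Genes of the other lists, which cover lysosomal proteins, cathepsin inhibitors, sorting and autophagy, were evenly split. Over 72 further genes with 92 spots, the mean was higher in DN-TRF2 cells at 46 spots and lower at 46, and the median difference was 0.00047. By limma 0 of the 92 spots passed over all spots, and at an unadjusted p under 0.05 there was 1 higher and 1 lower. The groups did not overlap at 3 spots higher and 1 lower, or 3.26% and 1.09%, against 4.28% and 4.43% of all spots. Of 16 of these genes with several spots, 8 had the same sign at all of them, so a single spot, which is all each cathepsin has, is a limited measure of its gene.

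Cathepsin inhibitors had 3 of 9 spots higher, with a median of -0.091. CSTB, the intracellular inhibitor of cathepsins L, B, H and S, read 8.90, 8.67 and 8.86 on DN-TRF2 arrays at 1 spot, against 9.31, 9.03 and 9.13 on GFP control arrays. That spot differed by -0.35 ± 0.15 with the groups apart, and its other spot by -0.14 ± 0.20 with the groups overlapping. CST3, the secreted inhibitor cystatin C, differed by 0.30 ± 0.17. Neither passed (limma adjusted p = 0.999 for each).

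Of the remaining peptidases, 2 of 8 spots were higher (median -0.064). LGMN, the asparaginyl endopeptidase that activates several cathepsin precursors, differed by 0.17 ± 0.14. DPP7 was lower in mean at both of its spots (-0.28 ± 0.23 and -0.12 ± 0.18). Glycosidases, lipases, sulfatases and nucleases had 8 of 19 spots higher (median -0.055). GALNS, a sulfatase of keratan sulfate breakdown, differed by 0.40 ± 0.18 and ACP2 by -0.18 ± 0.21. All 3 spots of PSAP, the saposin precursor that cathepsin D cleaves, had higher means, the spot of smallest p at 0.35 ± 0.23. By replicate number that spot differed by 0.15, 0.76 and 0.13, largest where GFP control replicate 2 is the partner. At another PSAP spot (0.23 ± 0.19) GFP control replicate 2 read 9.94, against 10.40 and 10.56 on the other controls. Lysosomal membrane proteins had 10 of 15 spots higher (median 0.063). CD63, a tetraspanin of late endosomes, was higher in mean at both of its spots (0.27 ± 0.15 and 0.14 ± 0.17). MCOLN1 differed by -0.12 ± 0.14. Sorting genes had 1 of 5 higher (median -0.065). Vacuolar ATPase genes, whose pump acidifies the lysosome, had 11 of 17 higher (median 0.077). ATP6AP2, an accessory subunit, differed by 0.42 ± 0.14 with the groups apart. ATP6V1B2 differed by -0.21 ± 0.17 with the groups overlapping, and ATP6V0C had a higher mean at 1 of its 4 spots. Genes of lysosome and autophagy control had 8 of 15 higher (median 0.014). RRAGA, a GTPase of amino acid sensing at the lysosome, had opposite signs at its 2 spots, -0.34 ± 0.17 and 0.36 ± 0.42. At the spot with the higher mean, GFP control replicate 2 read 10.67, under every other array. The other controls there read 12.12 and 12.72, and the DN-TRF2 arrays 12.41, 11.96 and 12.23. By limma none of the spots named in this paragraph passed (adjusted p = 0.999 for each).

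**Figure D4:**
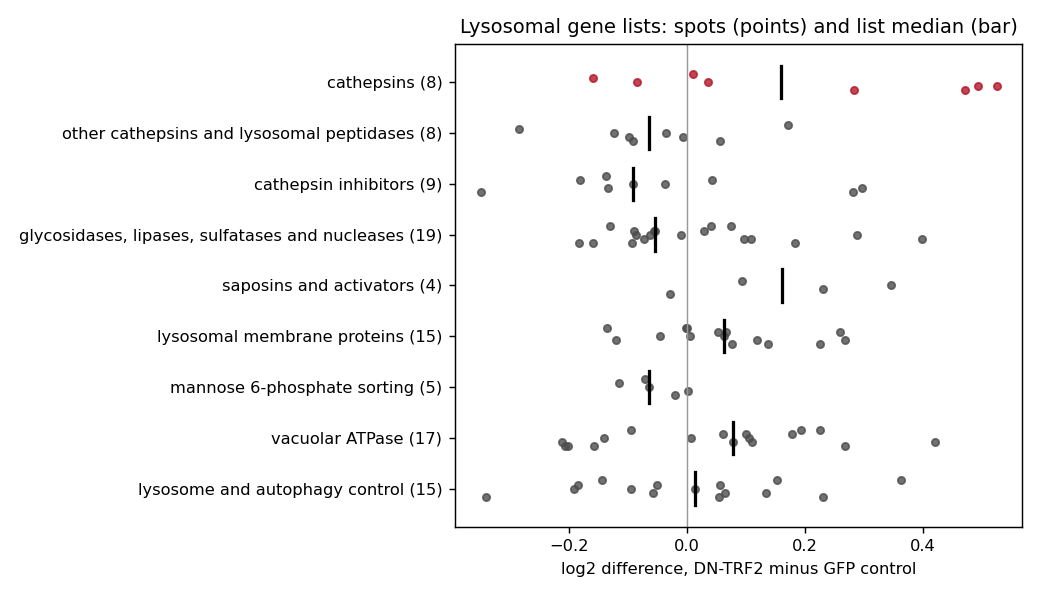
Log2 difference (DN-TRF2 minus GFP control) of every spot in the cathepsin group (red) and in 8 other lists (grey). These cover lysosomal proteins, cathepsin inhibitors, sorting and autophagy. The number of spots is in parentheses and a black bar marks the list median. The cathepsin median is 0.16, and that of the 4 saposin and activator spots is 0.16. Of those 4 spots 3 belong to PSAP, and the median over the 2 genes of that list is 0.097. The medians of the other 7 lists lie between -0.091 and 0.077.

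Because cathepsins S, K and H are abundant in macrophages and osteoclasts, markers of such cells were set beside them. Of 22 macrophage and blood cell markers 9 had a spot, and of their 10 spots 4 had a higher mean in DN-TRF2. Among these were CD14 (0.18 ± 0.13) and HBB (0.19 ± 0.14) with the groups apart. The HBB spot was dim, at percentile 3.02 of mean signal over all spots. Of the lower spots, ITGB2 differed by -0.15 ± 0.16 and LYZ by -0.15 ± 0.20, with the groups overlapping. The summed normalized intensity of the list ran from 23230 to 26430 on DN-TRF2 arrays and from 24280 to 26280 on GFP control arrays, and 0 of its spots lay at or under the stand-in value of 10. Of 7 osteoclast markers 2 were measured, with sums from 1766 to 2367 on DN-TRF2 arrays and from 1668 to 2756 on GFP control arrays. The brightest spots weigh most in such sums, here C1QB and 1 HLA-DRB1 spot in the former list and MMP9 in the latter. The sums therefore do not measure the amount of a cell type. Neuroblastoma markers had 18 spots for 10 of 19 genes, all 18 above the highest blank value on every array. Their means were higher in DN-TRF2 at 10 of 18 spots. GATA3 differed by 0.45 ± 0.15 with the groups apart at 1 of its 3 spots. At its others it differed by 0.10 ± 0.15 and 0.064 ± 0.17 with the groups overlapping. CHGA differed by -0.53 ± 0.20 at 1 of its 3 spots, the other 2 having higher means. By limma none of the spots given a difference in this paragraph passed (adjusted p = 0.999 for each). Since 9 of the 10 macrophage and blood cell spots also lay above the highest blank value, signal at a spot does not establish that its gene is expressed. The part of such cells in the cathepsin values was not tested. Cross-hybridization of a cathepsin clone with RNA of a related cathepsin was not tested either.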

How the data were processed

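RNA of 3 DN-TRF2 and 3 GFP control samples was labelled with a radioactive nucleotide (about 5 µg of total RNA) and hybridized to a 1-channel cDNA array, per the labels' protocols. The authors deposited linear intensity values for 9600 spots. How images were read, background treated and values scaled is not given in the sources used here. The value 10 recurs as a stand-in for no signal. Blank positions (384, every 25th spot) were dropped, as were 47 others at 10 throughout, leaving 9169. Symbols came from the platform annotation, updated by gene ID to the GRCh38.p14 gene table (8493 of 8517 annotated spots matched).

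An offset of 50 was added, log2 taken and the arrays quantile-normalized. All spots were fitted with limma 3.58.1 in R 4.3.3 (lmFit, eBayes, two-sided, Benjamini-Hochberg over all spots). SEs and intervals are those of this fit. In simulated data of 9169 spots, arrays were drawn independently, with 1 residual SD per spot from this fit for both groups. Of spots changed by 1 (log2) 58.0% were recovered, and of those changed by 2 97.5%. The simulation left out the unequal spread of the groups and the likeness of same-numbered arrays. Smaller changes were not simulated, so it does not show how often changes of the size seen at cathepsin spots would pass. The precision is limited by the number of arrays. The p-values measure the spread between the samples of 3 experiments.

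Same-numbered arrays of the groups deviated together from their group means (correlations of 0.39, 0.296 and 0.246). For this reason differences are given by replicate number too, as pairs. The SEs, intervals and p-values in the Results come from the fit without this pairing. This pairing comes from the values, since the labels name 3 experiments without tying them to the numbers. Each spot was therefore also fitted with the replicate number as a block. Other alternatives were other offsets and normalizations, no filter or a stricter one, array weights, unmoderated variance, a running median over 201 spots subtracted by spot order, and each array left out.

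Members and lists were chosen with earlier results of these data known. By the naming rule all member spots are named, with up to 2 genes per direction and list of smallest unadjusted p, and the 3 genes most like CTSL and CTSA in their deviations from the group mean. The rule gave values on every array to members whose groups do not overlap, and the other members' values were added after they had been seen. Upstream sequences are from RefSeq.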

Additional observations from a re-analysis of the deposited data

How the results depend on the processing

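Over all spots 0 passed limma's adjusted p under every alternative except an offset of 1, where 1 spot passed, which was no cathepsin. The smallest adjusted p was 0.999 with all arrays and settings as reported. Among cathepsin spots and among the 92 spots of the other lysosomal, inhibitor, sorting and autophagy lists 0 passed under any alternative. With the replicate block 0 spots passed (smallest adjusted p 0.269), 0 cathepsin spots among them, and the block changed no call at this threshold. At an unadjusted limma p under 0.05 the counts over all spots moved from 212 higher and 101 lower to 336 and 191. The SE with the block was 0.21 for CTSK and 0.15 for CTSD, against 0.32 and 0.21 without it. For CTSL it was 0.15 against 0.14. The count of cathepsin spots higher at an unadjusted p under 0.05, 3 as reported, was 2 with no normalization, no moderation of the variance, the running median subtracted, and without DN-TRF2 replicate 2 or 3. CTSL ran from 0.44 to 0.59, CTSA from 0.30 to 0.58 and CTSB from 0.34 to 0.65 over the 17 alternatives, with 0 turns of sign. The lowest CTSA and CTSL values, 0.30 and 0.44, came with the running median over spot order subtracted. CTSH turned sign under 8 of the 17, CTSD and CTSS under 3 each, and CTSK and CTSF under 1 each. The median difference over cathepsin genes, 0.16 as reported and with the replicate block, ran from 0.12 with median scaling to 0.21 with array weights. With 1 array left out it ran from 0.023 without GFP control replicate 1 to 0.24 without DN-TRF2 replicate 2. It was 0.22 without DN-TRF2 replicate 1 and 0.22 without GFP control replicate 2. The cause was not tested. Each cathepsin has 1 spot, so taking the brightest spot per gene could not change a value. Fold changes at dim spots, such as that of CTSA, depend on the offset: CTSA was 0.58 at an offset of 1 and 0.40 at an offset of 100.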
